A study of Drosophila melanogaster with 6 samples.

Results

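Brain RNA of males with a feminized Blood–Brain Barrier (BBB) was compared with that of males that carried only the driver. These are 4 of the 6 libraries of the study, chosen by genotype label, with 2 biological replicates per genotype. Feminized males were *w1118*; *+*; *SPG-GAL4/UAS-traF*, and driver-only males were *w1118*; *+*; *SPG-GAL4/+*. Both groups thus share the *w1118* background and 1 copy of the driver, and differ in the *UAS-traF* transgene. *SPG-GAL4* (*moody-Gal4*) drives expression in the subperineurial glia, and *UAS-traF* encodes the female form of Transformer. All were males dissected at 4 to 5 days of age, each library pooled many whole brains with the BBB attached, and both stocks had been outcrossed to a Cantonized *w1118* stock. The other 2 libraries, of males that carried only the transgene (*UAS-traF/+*), entered the fit for a shared estimate of the spread, and their values are given beside a few genes with no test.

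In the fly, a sheet of glial cells closes the brain off from the hemolymph. The subperineurial glia form its tight layer through septate junctions, and they carry the transporters that admit sugars and amino acids. Sex is set cell by cell through splicing: Transformer, which is functional only in females, redirects the splicing of *dsx* and *fru* RNA, whose proteins then act as sex-specific transcription factors. Expression of the female form of Transformer in male glia is therefore used to change the sexual identity of these cells alone. Whether it did so was not measured here.

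Estimated counts per transcript summed to 37608924 and 36644007 in replicates 1 and 2 of feminized males and to 32839081 and 35471014 in driver-only males. Values below are normalised counts, that is, counts divided by the library size after TMM scaling and multiplied by its mean over the libraries. Neuronal and glial markers were abundant in all 4 libraries, and 11 accessory gland markers together stayed at or below 29.5 normalised counts. Driver-only replicate 2 differed from the other 3 libraries in testis markers. Of 51 such genes, 41 were highest in that library of the 4. A set of 30 had at most 3 counts in each of the other 3 libraries, where they summed to 26, 32 and 22 counts. In that library the same genes summed to 342, and 22 of them exceeded 3 counts. The 30 were chosen for low counts elsewhere, so part of this gap follows from the choice. The sum over all 51 was lowest in that library, and most of it came from *bol* (10286 normalised counts there against 17867, 15336.5 and 19017). Driver-only replicate 1 differed from replicate 2 in a trend with transcript length. With transcripts ordered by length into 10 groups of equal size, the shortest group (up to 952 bases) had a median log2 difference, replicate 1 minus replicate 2, of -0.38, and the longest (5991 bases or more) of 0.42. The 2 feminized libraries lay between them, and their own difference ran from -0.02 to 0.05 over the 10 groups. Across all tested transcripts the median absolute log2 difference was 0.17 between the feminized libraries and 0.34 between the driver-only libraries.

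**Figure D1:**
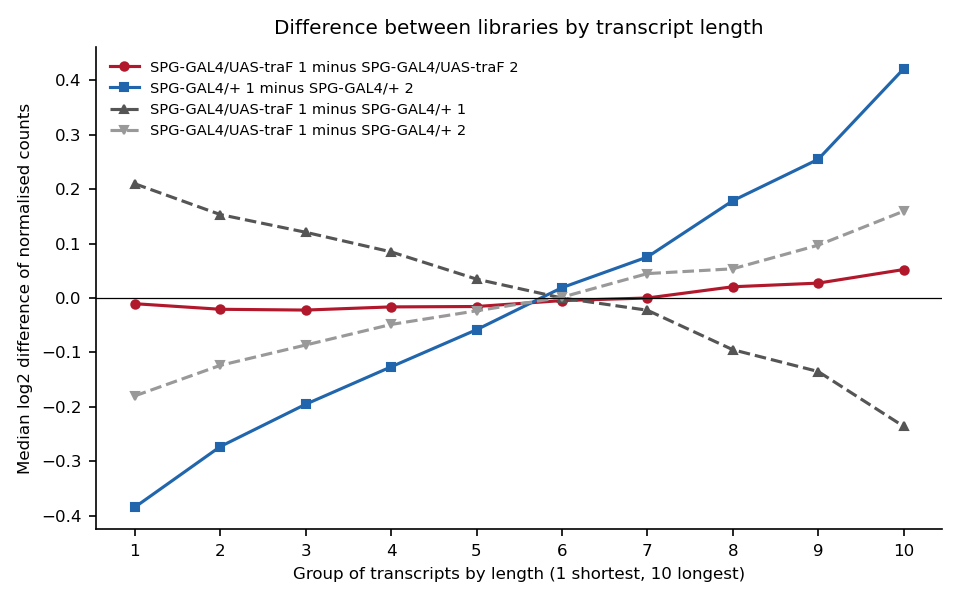
Median log2 difference of normalised counts between pairs of libraries (y axis) in 10 groups of equal size of the tested transcripts ordered by length (x axis, 1 shortest, 10 longest). The 2 driver-only libraries differ by -0.38 in the first group and by 0.42 in the last, feminized replicate 1 minus driver-only replicate 1 falls from 0.21 to -0.24 and feminized replicate 1 minus driver-only replicate 2 climbs from -0.18 to 0.16, while the feminized replicates stay near 0.

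The labels could be checked against the transgenes only in part. *w*, the eye colour transporter gene that is carried as a marker by many fly transgenes, had 3516 and 3605 normalised counts in feminized males and 2869 and 3244 in driver-only males, against 680 and 747 in *UAS-traF/+* males. The libraries labelled as carrying the driver thus lay above those labelled as lacking it. *tra-RB*, the 1 transcript of *tra* in the table used here, does not encode the full protein, and had 539 and 558 normalised counts in feminized and 617 and 578 in driver-only males. The female transcript was not analysed here, so expression of the transgene itself was not measured. *moody*, the receptor gene of the BBB from which the driver takes its name, had 3743 and 3939 normalised counts against 3600 and 3632. Its log2 fold change was 0.09 (standard error 0.08, unadjusted p = 0.292 in edgeR). Its groups did not overlap, as in 13.6% of all gene sums in that direction.

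The first question was whether single transcripts differed between the genotypes. Of 21208 transcripts tested with edgeR (quasi-likelihood fit, p adjusted after Benjamini-Hochberg), none passed an adjusted p of 0.1. At an unadjusted p below 0.05 there were 1188 transcripts (5.6%), of which 527 (2.48%) were higher in feminized males and 661 (3.12%) lower. The groups did not overlap in 31.3% of transcripts. From the same counts DESeq2 called 289 transcripts, 164 higher and 125 lower, and limma-voom called 0. Because RNA came from whole brains, fewer cells of a type and less RNA per cell cannot be told apart for any of these values, and libraries were not strand specific, so that reads of overlapping and antisense genes were not separated.

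The transcript with the smallest p was *Liprin-gamma-RB*, from a gene for a scaffold protein of the presynaptic active zone. It had 66.1 and 56.5 normalised counts in feminized males and 584 and 639 in driver-only males (log2 fold change -3.31, standard error 0.16, edgeR adjusted p = 0.104). *dpr15* encodes a cell surface protein of the Dpr family, whose members recognise partner proteins between neurons. Its transcript *dpr15-RB* had 346 and 302 normalised counts against 2296 and 1933 (log2 fold change -2.70, standard error 0.16, edgeR adjusted p = 0.121). Conversely, *dpr15-RA* had 2411 and 2236 normalised counts in feminized males against 727 and 654 (log2 fold change 1.75). *UAS-traF/+* males had 2108 and 1764 of *dpr15-RB* and 475 and 632 of *dpr15-RA*, on the side of the driver-only males. *AGO2* encodes the Argonaute protein of the small interfering RNA pathway. *AGO2-RC* had 2952 and 3350 normalised counts against 565 and 427 (log2 fold change 2.67, standard error 0.17, edgeR adjusted p = 0.127), and it also had 2595 and 2901 in *UAS-traF/+* males, on the side of the feminized ones. These transcripts were named for a small p and no overlap, so the gap between feminized and driver-only males follows from that choice. *Liprin-gamma-RB*, *dpr15-RB* and *AGO2-RC* each had an edgeR adjusted p of 0.0144 when only transcripts with at least 10 counts in every library were tested.

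The other transcripts named by the same rule, the smallest p among those with at least 50 normalised counts and no overlap between the groups, fell into similar kinds. *trol-RAL*, a transcript of the heparan sulfate proteoglycan Perlecan of the basement membrane, had 3409 and 3556 normalised counts in feminized males, 0 and 5.75 in driver-only males and 0 in both *UAS-traF/+* libraries. *trol-RAY* went the other way, with 7.67 and 2.92 against 207 and 338. *JhI-21-RA*, from a gene for an amino acid transporter, was at 0 in both feminized libraries and at 236 and 331 in driver-only males, at least 97.7-fold lower against 3 counts per library. *psq-RB*, of the BTB domain transcription factor Pipsqueak, had 258 and 286 normalised counts against 0 in both, at least 88.5-fold higher. *wde-RB*, of a cofactor of histone H3 lysine methylation, had 244 and 346 against 1236 and 1231. Smaller differences between expressed transcripts were seen for *CDase-RD* of the ceramidase gene (3380 and 3193 against 1592 and 1446), *nuf-RJ* of a partner of Rab11 (2756 and 2446 against 1496 and 1488), *Zn72D-RC* of a zinc finger RNA binding protein (733 and 667 against 1319 and 1228) and *CtBP-RE* of a corepressor (413 and 466 against 980 and 803). The last 5 were *CG43867-RC* (221 and 100.4 against 1.09 and 0.958), *CG6928-RB* (1074 and 886 against 277 and 369), *hyd-RB* of a ubiquitin ligase (0 in both against 70.9 and 178), *CG4612-RA* (0 in both against 135 and 151) and *Nubpl-RE* (1185 and 1103 against 1744 and 1621). The edgeR adjusted p of the transcripts in this paragraph lay between 0.279 and 0.649.

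Transcripts that were present in one genotype and absent from the other were counted separately. Of 26881 transcripts with a count, 18 (0.067%) had at most 3 counts in both driver-only libraries and at least 50 normalised counts in both feminized ones, and 17 (0.0632%) showed the reverse. Such gaps were also seen between 2 replicates of 1 genotype, where the rule is looser because it asks for 1 library a side rather than both. From feminized replicate 1 to replicate 2, 189 transcripts went from at most 3 counts to at least 50 normalised counts and 135 the other way, and the numbers were 238 and 162 for the driver-only replicates. The transcripts present only in feminized males made up a median of 2.37% of their gene's counts there, and those present only in driver-only males 4.01%. Among the first were *SERCA-RC* of the calcium pump of the endoplasmic reticulum (185 and 600 normalised counts against 3.27 and 0) and *nAChRalpha6-RA* of a nicotinic receptor subunit (64.2 and 284 against 0 in both). Among the second was *CG5989-RC*, with 0 and 0.975 normalised counts against 659 and 860. Within that gene *CG5989-RA* showed the opposite, with 891 and 1025 in feminized males against 45.8 and 130, and the gene sum overlapped between the genotypes at 1388 and 1405 against 1256 and 1446.

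Since Kallisto shares out the reads of a gene among its transcripts, the next question was whether transcripts of 1 gene changed by different amounts. With edgeR's test of transcript usage, 76 of 5109 genes with at least 2 tested transcripts (1.49%) passed a Benjamini-Hochberg adjusted p of 0.1, and 462 (9.04%) had an unadjusted p below 0.05. In the 76 genes the transcript with the smallest p was higher in feminized males in 37 and lower in 39. It made up a median of 4.82% of the gene's counts in the genotype where it was larger, against 26.1% over all genes tested. Of the 76 gene sums, 4 had an unadjusted p below 0.05 and none an adjusted p below 0.1. In 34 (44.7%) the transcript with the smallest p and the most abundant other transcript had the same coding exons, compared with 52.7% of all genes tested, and in 56 (73.7%) they ended at the same base, compared with 56.4%. The number of calls was 18 without feminized replicate 1, 265 and 395 without driver-only replicates 1 and 2, and 30 and 28 without *UAS-traF/+* replicates 1 and 2. The test takes the counts of transcripts as measured separately, although they share reads, and the error of that sharing was not used.

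The 3 genes *dpr15*, *Liprin-gamma* and *wde* changed in usage in the reported fit and in all 13 other settings tried from the start. In *dpr15* (chromosome 3R, 12138833 to 12158595, BDGP6.54), *dpr15-RB* made up 12.6% and 11.9% of the gene's counts in feminized males and 75.9% and 74.7% in driver-only males, and *dpr15-RA* made up the rest (edgeR adjusted p = 0.000115). Both transcripts have the same coding exons, and *dpr15-RB* lacks 16 bases of exon that *dpr15-RA* has. The sum over both overlapped between the genotypes, with 2758 and 2545 normalised counts against 3146 and 2539. The more abundant transcript of the gene was thus *dpr15-RA* in feminized males and *dpr15-RB* in driver-only males. In *Liprin-gamma* (chromosome 2R, 22333500 to 22373109), *Liprin-gamma-RA* and *Liprin-gamma-RB* took 0.161% and 0.568%, and 0.427% and 0.358%, of the counts in feminized males, against 2.75% and 3.06%, and 3.33% and 4.55%, in driver-only males (edgeR adjusted p = 0.000848). Most counts of the gene belonged to *Liprin-gamma-RE*, which overlapped between the genotypes (11114 and 11099 normalised counts against 11480 and 9484). In *wde* (chromosome 2R, 10800420 to 10808938), *wde-RB* took 3.88% and 5.40% against 18.4% and 20.3%, and it has the same coding exons as *wde-RA*, from another start (edgeR adjusted p = 0.00315).

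**Figure D2:**
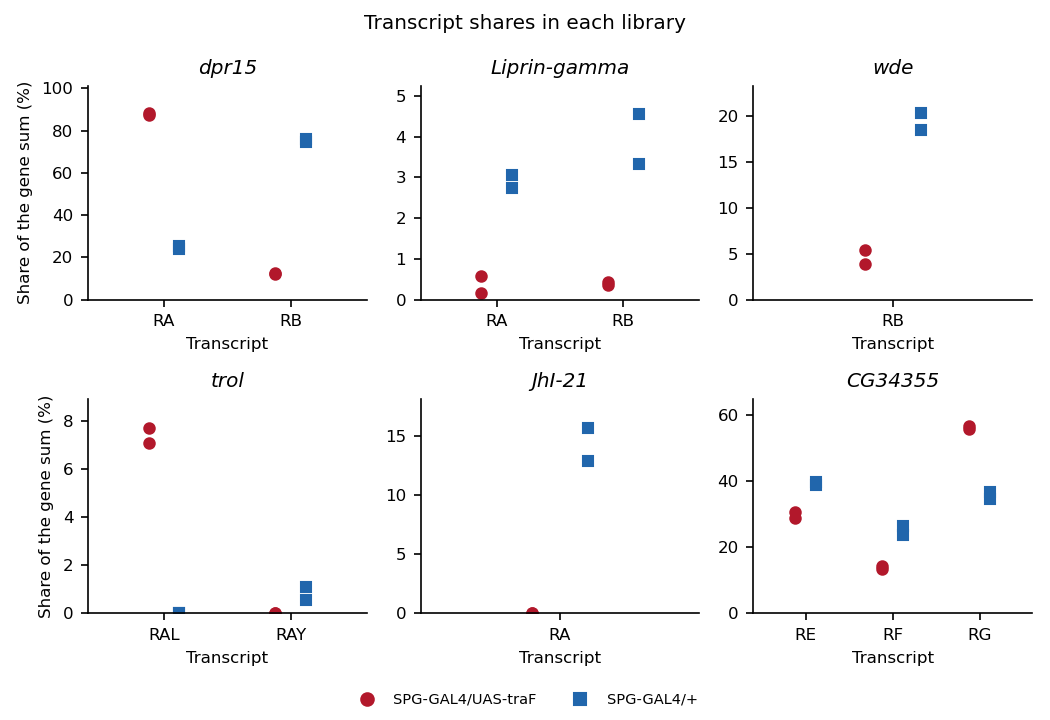
Share of a gene's counts (y axis, percent) taken by single transcripts (x axis) in 6 genes with changed transcript usage, with 1 point per library: circles for the 2 *SPG-GAL4/UAS-traF* libraries and squares for the 2 *SPG-GAL4/+* libraries. In each transcript shown the circles and squares do not overlap, as for *dpr15-RB* with 12.6% and 11.9% against 75.9% and 74.7%.

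The other 7 of the 10 genes with the smallest p were called in fewer of the 13 settings, namely *CG33096* in 12, *trol* and *teq* in 11, *JhI-21* and *stops* in 9, and *MCU* and *Aldh-III* in 7. *trol* had the smallest p of all (edgeR adjusted p = 1.78e-09). *trol-RAL* made up 7.10% and 7.72% of its counts in feminized males and 0% and 0.0182% in driver-only males, and it lacks 779 exon bases of *trol-RAS*, the most abundant form, which held between 65.2% and 68.9% in all 4 libraries. In *JhI-21*, the share of *JhI-21-RA* was 0% in both feminized libraries and 12.9% and 15.7% in driver-only males (edgeR adjusted p = 0.00428). *JhI-21-RA* has the same coding exons as *JhI-21-RB*, another start and 36 more exon bases. *teq*, which encodes the serine protease Tequila, had *teq-RG* at 2.03% and 1.21% against 0% in both, and *teq-RF* at 0% in both against 0.868% and 0.742% (edgeR adjusted p = 0.000848). In the mitochondrial calcium uniporter gene *MCU*, *MCU-RD* took 13.3% and 10.8% against 5.96% and 7.11%, and *MCU-RH* was at 0 in feminized males and at 1.27% and 2.75% in driver-only males (edgeR adjusted p = 0.00279). *stops*, a gene for the termination of the light response, had *stops-RA* at 0% in both feminized libraries and at 14.6% and 19.9% in driver-only males (edgeR adjusted p = 0.00864). These shares in driver-only males rested on low counts, 20.7 and 27.8 normalised. *CG33096* and *Aldh-III*, an aldehyde dehydrogenase gene, complete the 10 with the smallest p, and there the leading transcripts held 1.32% and 1.28% against 0%, and 0.883% and 0.567% against 0%. In feminized males these were low counts as well, 17.3 and 16.6, and 23.0 and 14.6 normalised. Most of these exchanges thus concerned minor forms of the gene.

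Some genes outside that rule were picked after their values were seen. *CG34355* changed in usage with 3 well expressed transcripts (edgeR adjusted p = 0.016). *CG34355-RG* took 55.8% and 56.8% in feminized males against 34.7% and 36.7%, *CG34355-RF* 13.5% and 14.3% against 26.3% and 23.6%, and *CG34355-RE* 30.7% and 28.9% against 39.0% and 39.7%. *Hdc*, which encodes the enzyme that makes histamine, had *Hdc-RA* at 2.04% and 4.30% against 0% in both, while *Hdc-RC* held at least 93.4% in each library (edgeR adjusted p = 0.00973). *Hdc-RA* had only 9.59 and 21.4 normalised counts in feminized males, and 62.4 and 58.5 in *UAS-traF/+* males. *ETHR*, a receptor for ecdysis triggering hormone, had *ETHR-RA* at 0% in both against 29.9% and 20.8%, and *ETHR-RC*, which has the same coding exons, at 70.4% and 60.4% against 34.4% and 39.6% (edgeR adjusted p = 0.039). *fru* changed in usage as well (edgeR adjusted p = 0.0659), led by *fru-RM* with 1.92 and 0 normalised counts against 69.8 and 44.1, or at most 1.15% of the gene in any of the 4 libraries. In *UAS-traF/+* males *fru-RM* had 270 and 169. Of the 13 settings, the call was kept in 11 for *CG34355*, 10 for *Hdc*, 7 for *ETHR* and 4 for *fru*.

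At the level of gene sums, 1 of 9777 genes (0.0102%) passed an edgeR adjusted p of 0.1, and it was higher in feminized males. There were 571 gene sums (5.84%) with an unadjusted p below 0.05, 189 higher (1.93%) and 382 lower (3.91%), and the groups did not overlap in 28.3% of all gene sums. The 1 gene was *CG6928* (FBgn0036240, chromosome 3L, 12003155 to 12008051, plus strand), of the SLC26 family of predicted anion transporters. It rose from 453 and 515 normalised counts in driver-only males to 1218 and 1104 in feminized males (log2 fold change 1.26, standard error 0.10, edgeR adjusted p = 0.0414). *UAS-traF/+* males had 1214 and 1174, at the level of the feminized libraries. The call was lost when either feminized library was left out (edgeR adjusted p = 0.875 without replicate 1 and 0.48 without replicate 2), and was kept without either driver-only library. *rols*, the gene next to it (12008225 to 12064859), had 1757 and 1925 normalised counts against 1371 and 1387 (log2 fold change 0.42, edgeR adjusted p = 0.441).

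The count of gene sums past the threshold depended on the 2 driver-only libraries more than on any other choice. Without replicate 1, 318 gene sums were called, 182 higher and 136 lower, with a median length of 4312 bases among the higher and 1366 among the lower. Without replicate 2, 2010 were called, 745 higher and 1265 lower, and the lengths were reversed, with medians of 1301 among the higher and 4707 among the lower. Between the sets without either driver-only library 105 genes were shared, of which 59 had the same direction in both (32 higher and 27 lower) and 46 had opposite directions. It was 0 without either feminized library and 4 without either *UAS-traF/+* library. After removal of each library's length trend, 17 gene sums were called, 12 higher and 5 lower. The 59 genes of one direction included *CG6928*, *DNaseII*, a nuclease gene (2362 and 2556 normalised counts against 1359 and 1741), and *CG6465* (2801 and 2851 against 2164 and 2112), both picked after their values were seen.

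The 9 further gene sums with the smallest p among those higher in feminized males did not pass the threshold, with edgeR adjusted p values between 0.104 and 0.242. *Mur89F*, a mucin gene, had 81.5 and 97.7 normalised counts against 18.2 and 18.8 (log2 fold change 2.27). *rec*, whose product belongs to the MCM family and acts in meiotic recombination, had 485 and 483 against 280.2 and 264. *CG6834* and *CG6908* are neighbours on chromosome 3R (11684672 to 11690051) and belong to a family of ecdysteroid kinase-like genes. They had 1406 and 1498 against 855 and 970.0, and 432 and 433 against 273 and 257. *CG6071*, *CG33493* and *CG5390* had log2 fold changes of 1.59, 1.53 and 0.96, and in all these genes the *UAS-traF/+* libraries also lay above both driver-only libraries. *CG10936* (chromosome 2R, 17604951 to 17639138) stood apart in this respect, with 3859 and 4532 in feminized males, 2443 and 2058 in driver-only males and 2239 and 1890 in *UAS-traF/+* males (log2 fold change 0.90, standard error 0.13, edgeR adjusted p = 0.22).

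*BaraA1* and *BaraA2* on chromosome 2R are near-identical copies that encode the precursor of the immune peptides named Baramicin A. *BaraA2* had 111 and 134 normalised counts in feminized males against 23.8 and 17.9 (log2 fold change 2.56, edgeR adjusted p = 0.108). *BaraA1*, picked after its values were seen, was at 0 in both feminized libraries and at 109 and 83.7 in driver-only males, and it was also at 0 in both *UAS-traF/+* libraries. Summed over both genes, the values overlapped, at 111 and 134 against 133 and 102. Such copies share reads, so the split between them is uncertain, and the sum is the firmer value.

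Among gene sums lower in feminized males none passed the threshold in edgeR. The 10 with the smallest p among those with at least 50 normalised counts had edgeR adjusted p values between 0.22 and 0.441, 382 genes were lower at an unadjusted p below 0.05, DESeq2 called 19 and limma-voom 1. *CG31538* had 72.9 and 58.6 normalised counts against 226 and 163 (log2 fold change -1.56). *CG6912*, *CG3984* and *CG3987* lie next to each other on chromosome 3R (15135138 to 15141715). *CG6912* had 1703 and 1355 normalised counts against 4266 and 2887, *CG3984* 1000.4 and 723 against 2816 and 1846, and *CG3987* 251 and 201 against 509 and 391. *CG6654*, on the same arm at 15211277 to 15213658, had 1604 and 1433 against 3371 and 2413. In these 4 genes the *UAS-traF/+* libraries had values close to those of the feminized males, for example 1479 and 1509 for *CG6912*. *pre-mod(mdg4)-V*, 1 of several overlapping gene models of the *mod(mdg4)* locus whose RNAs are joined by trans-splicing, had 122 and 111 against 360 and 324, and reads of these models cannot be assigned with certainty. *CG3345*, *CG33267*, *CG31817* and *CG30460* had log2 fold changes of -1.05, -0.91, -1.17 and -0.39.

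**Figure D3:**
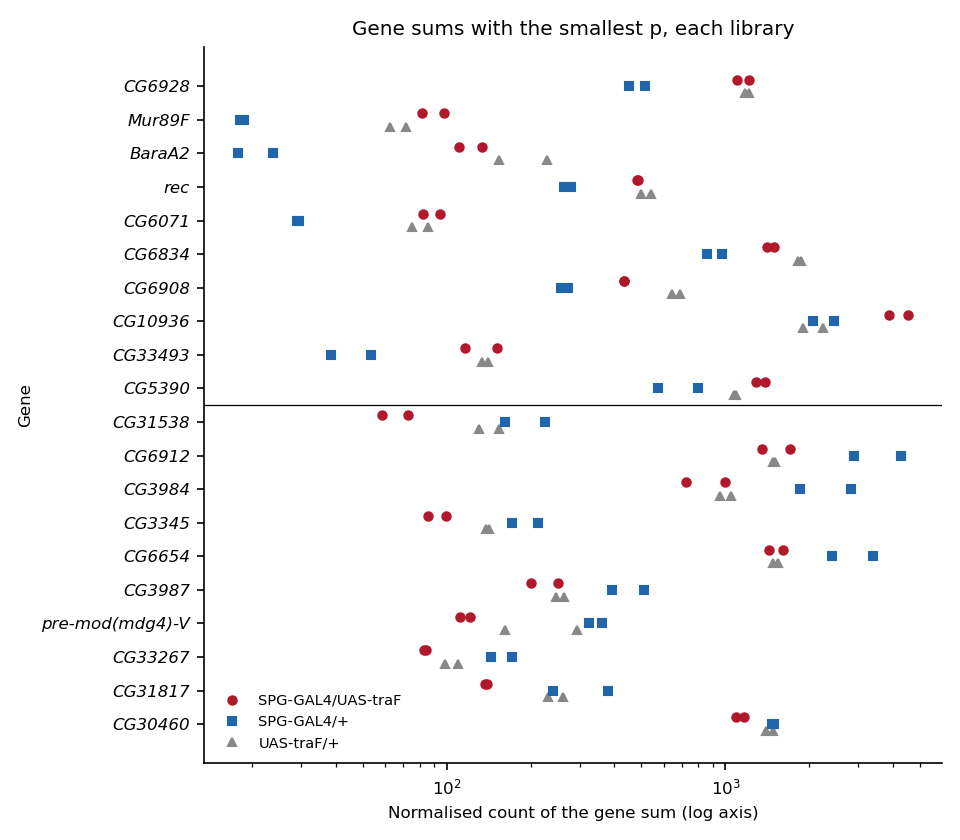
Normalised counts of gene sums (x axis, log scale) for the 10 genes higher and the 10 genes lower in feminized males with the smallest p (y axis, higher above the line), with 1 point per library and genotypes by symbol. *CG6928* lies at 1218 and 1104 in *SPG-GAL4/UAS-traF*, 453 and 515 in *SPG-GAL4/+* and 1214 and 1174 in *UAS-traF/+* males, and *CG10936* is higher in feminized males than in both other genotypes.

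By chromosome arm, the share of gene sums with an unadjusted p below 0.05 was 7.05% on 3R and 6.66% on 3L, 5.59% on 2L, 5.44% on 2R, 3.85% on the fourth chromosome and 3.82% on X. The order was not the same over transcripts, with 8.82% on the fourth chromosome, 6.21% on 3R, 6.04% on 3L, 5.91% on 2L, 4.87% on 2R and 4.60% on X. By genotype notation both transgenes are on chromosome 3. Runs of 3 or more neighbouring genes with an unadjusted p below 0.05 in 1 direction were found at 7 places, 4 of them on 3R. That arm also had the most tested gene sums, 2438 of 9777. Of the runs on 3R, 1 consisted of gene models of the *mod(mdg4)* locus rather than of separate genes. Another model of that locus, *pre-mod(mdg4)-AD*, was higher, with 239 and 202 normalised counts against 150 and 67.7. Beside the runs already named, 5 neighbours on 3L from *CG18234* to *CG32199* (18603425 to 18614004) were lower with 8.79 to 24.9 normalised counts in feminized libraries against 23.5 to 60.1. On 3R *ninaB*, which cleaves carotenoids to make the chromophore of the visual pigments, *Adgf-D* and *Adgf-C*, 2 genes of adenosine deaminase related growth factors, were higher, for *ninaB* with 7629 and 7059 against 5379 and 5042.

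Gene lists for the tissue and the manipulation were then described by counts, with no test of the list. No tested member of any list passed an edgeR adjusted p of 0.1 as a gene sum. Over all gene sums the median log2 fold change was -0.01, and the counts of list members below are to be read against 1.93% higher and 3.91% lower at an unadjusted p below 0.05. Counts or medians with single libraries left out are given for most lists, and not for every one. Among 13 glial markers, 5 were higher at an unadjusted p below 0.05 and none lower, against 1.93% and 3.91% of all gene sums. All 13 had fitted values above 0, with a median log2 fold change of 0.25, and in 9 both feminized libraries exceeded both driver-only libraries, against 13.6% of all gene sums. *alrm*, a marker of astrocytes, had 29312 and 29061 normalised counts against 23094 and 23004 (log2 fold change 0.34, standard error 0.12). *Gat*, the glial transporter of GABA, had 54208 and 50160 against 41368 and 36126 (0.43, standard error 0.15). *Gs2*, the glutamine synthetase of glia, had 118360 and 122573 against 97059 and 90164 (0.36, standard error 0.13), and *axo* and *nrv2* had log2 fold changes of 0.34 and 0.28. *Eaat1*, the glial glutamate transporter, had 59786 and 58078 against 50685 and 46004. *repo*, the transcription factor that defines glia, did not separate the genotypes, with 5091 and 5512 against 5000 and 5480. In *UAS-traF/+* males *alrm* had 29001 and 25467 normalised counts and *Gs2* 111124 and 97172, in both cases above the driver-only libraries.

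The count of glial markers at an unadjusted p below 0.05 was 0 and 1 without feminized replicates 1 and 2, 8 without driver-only replicate 1, 7 without replicate 2 and 1 in a fit of the 4 libraries alone, and the median stayed between 0.17 and 0.27 in every alternative. The summed level of the list was 442628 and 445437 normalised counts in feminized males and 368007 and 353477 in driver-only males. The summed level of 12 neuron markers was 643681 and 604278 against 720608 and 506497, with the feminized values between those of the driver-only libraries, and their median log2 fold change was -0.02. Without driver-only replicate 1, 9 of them were higher, and without replicate 2, 5 were lower at an unadjusted p below 0.05.

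**Figure D4:**
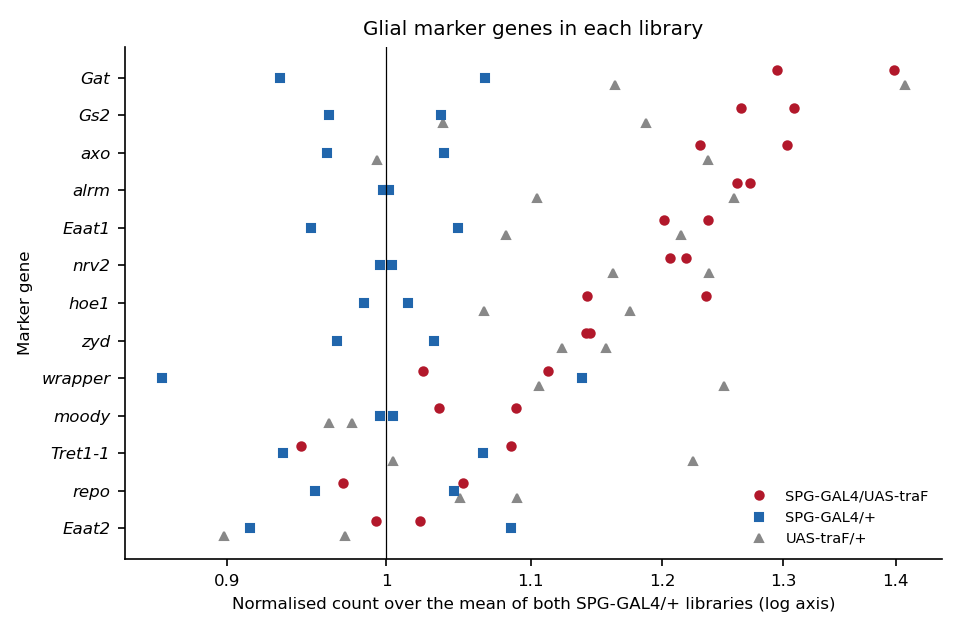
Normalised counts of 13 glial marker genes (y axis) divided by the mean of both driver-only libraries (x axis, log scale), with 1 point per library and genotypes by symbol. The *SPG-GAL4/UAS-traF* circles lie to the right of both *SPG-GAL4/+* squares in 9 genes, among them *alrm*, *Gat* and *Gs2*, and the *UAS-traF/+* triangles of these 3 genes also lie at or to the right of the squares.

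Of 24 genes of septate junctions and subperineurial glia, 2 were higher at an unadjusted p below 0.05 and none lower, with a median log2 fold change of 0.03. It was 8 higher and 0 lower without driver-only replicate 1, and 3 higher and 2 lower without replicate 2. *Galphai*, the G protein subunit that acts with Moody, had 2548 and 2738 normalised counts against 2072 and 2066 (log2 fold change 0.35, standard error 0.07, edgeR adjusted p = 0.541). Of 30 genes of barrier transport and metabolism, 2 were higher and 2 lower, compared with 8 and 2 without driver-only replicate 1 and 5 and 5 without replicate 2, and no more than 1 was below that p without either feminized library. The higher ones were *mnd*, an amino acid transporter gene (4580 and 4861 against 3840 and 3999), and *Oatp58Dc*, of an organic anion transporter. The lower ones were *Mct1*, of a monocarboxylate transporter (322 and 332 against 420 and 403), and *MRP*, of an ABC transporter (2561 and 2543 against 4168 and 2915). The basement membrane list of 13 genes also held glypicans, which sit at the cell surface. Of the 13, only the glypican gene *dlp* had an unadjusted p below 0.05, at 1012 and 1070 against 946 and 862. It was 3 higher and 4 lower without driver-only replicate 1, and 0 higher and 1 lower without replicate 2. The *trol* sum was 48011 and 46196 normalised counts against 38428 and 30956 (log2 fold change 0.44, standard error 0.19, unadjusted p = 0.0507 in edgeR).

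Of 17 sex determination genes, 3 were lower at an unadjusted p below 0.05 and none higher, with a median log2 fold change of -0.07. Without driver-only replicate 1 the list had 2 higher and 3 lower (median 0.02), without replicate 2 it had 1 higher and 10 lower (median -0.21), of which 8 passed an edgeR adjusted p of 0.1, and without either feminized library 1 was lower. *dsx* had 512 and 563 normalised counts against 680 and 665 (log2 fold change -0.32, standard error 0.09, edgeR adjusted p = 0.663). *dsx-RD*, which encodes the male form of the protein, had 327 and 340 against 386 and 418 (edgeR adjusted p = 0.907). *dsx-RF*, which encodes the female form, had 185 and 201 against 267 and 256 (edgeR adjusted p = 0.897), and 239 and 297 in *UAS-traF/+* males. Both are Kallisto estimates of how reads divide between transcripts, so presence of the female form in control males is not shown by them. *Yp2*, a yolk protein gene, was low in all 4 libraries, at 18.2 and 16.6 against 48.8 and 29.1. The sums of *fru* (5308 and 5585 against 6298 and 4729) and *Sxl* (12580 and 11908 against 14923 and 9673) lay between the values of the driver-only libraries.

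Of 30 splicing regulators, 5 were lower and none higher at an unadjusted p below 0.05, among them *hfp*, *B52* and *snRNP-U1-70K*, with log2 fold changes of -0.49, -0.45 and -0.25. For example *B52*, an SR protein gene, had 7336 and 7597 normalised counts against 11571 and 8832. The balance of this list depended on the driver-only libraries. It was 12 higher and 5 lower without replicate 1 (median log2 fold change 0.09) and 2 higher and 15 lower without replicate 2 (-0.20). It was 5 higher and 5 lower with the length trend removed, and 1 and 0 were lower without feminized replicates 1 and 2.

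Of 21 heat shock and stress genes, 3 were lower and none higher at an unadjusted p below 0.05 (*Hsp27*, *Hsp70Ab* and *Hsp22*), with a list median of -0.16. Without feminized replicates 1 and 2 there were 0 and 1 lower, with medians of -0.05 and -0.24, and without driver-only replicates 1 and 2 there were 4 and 3 lower, with medians of -0.25 and -0.08. *Hsp27*, a small heat shock protein gene, had 107.4 and 107.5 normalised counts against 130.5 and 175. Of 21 immune peptide genes, 2 were lower and none higher, and in 8 both feminized libraries were below both driver-only libraries, against 14.7% of all gene sums. *DptA* and *DptB*, the Diptericin genes, had 41.2 and 35.2, and 47.0 and 31.3, against 64.7 and 74.3, and 69.2 and 73.3, normalised counts. The list median was -0.31 and lay between -0.20 and -0.42 in every alternative, and the number lower was 1 and 0 without feminized replicates 1 and 2 and 3 and 0 without driver-only replicates 1 and 2.

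Of the 18 testis markers that could be tested, 6 were lower and none higher, with a list median of -0.77. It was -0.26 without driver-only replicate 2, the library with testis RNA, -0.59 without replicate 1, and -0.94 without either feminized library. *Mst98Ca* had too few counts to be among the 18 tested markers. It had 2 and 2 counts in feminized males and 0 and 58 in driver-only replicates 1 and 2. In that gene nearly all counts belonged to 1 library. Of 13 genes of the mitochondrial genome, *mt:Cyt-b* and *mt:CoIII* were higher and *mt:ND6* was lower at an unadjusted p below 0.05. *mt:Cyt-b* had 296961 and 280949 normalised counts against 239641 and 212192, and *mt:ND6* 2273 and 1899 against 2459 and 4173. The list had 1 higher and 2 lower without driver-only replicate 1, and 5 higher and 0 lower without replicate 2.

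Among lists of neuronal function, no member of 37 synapse genes had an unadjusted p below 0.05 in edgeR, compared with 1 of 32 Dpr and DIP genes (*dpr21*, 3355 and 3331 normalised counts against 2505 and 2868), and 1 of 35 neuropeptide genes (*Dh44*, a diuretic hormone, 18253 and 17543 against 15762 and 13919). Among 34 genes of hormone signaling *JhI-26*, a juvenile hormone inducible gene, was higher (1298 and 1311 against 1122 and 1146). *shd*, which encodes the hydroxylase that turns ecdysone into its active form, was lower at 6.71 and 9.77 against 15.9 and 16.9, all low counts. Of 17 clock genes only *e*, which joins beta-alanine to amine transmitters, was higher (6348 and 6330.4 against 5530 and 4968). None of the 87 ribosomal protein genes and none of the 68 nuclear genes of oxidative phosphorylation reached an unadjusted p below 0.05 in edgeR, with list medians of -0.002 and 0.01.

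These counts rested on both driver-only libraries together, which lay on opposite sides of the feminized ones in the length trend. Without driver-only replicate 1, 23 synapse genes were higher and none lower at an unadjusted p below 0.05, and without replicate 2 none were higher and 20 lower, 18 of them at an adjusted p below 0.1 in edgeR. Dpr and DIP genes had 12 higher and 0 lower without replicate 1, and 1 higher and 16 lower without replicate 2. Hormone signaling genes had 16 higher and 0 lower, and 5 higher and 14 lower. Clock genes had 4 higher and 0 lower, and 2 higher and 4 lower. Neuropeptide genes, with a median length of 755 bases, went the other way and had 3 higher and 8 lower without replicate 1, and 15 higher and 2 lower without replicate 2. Of the ribosomal protein genes 40 were lower without replicate 1 (median -0.23) and 69 higher without replicate 2 (median 0.28), 38 of them at an adjusted p below 0.1 in edgeR. Of the oxidative phosphorylation genes 31 were lower without replicate 1 and 47 higher without replicate 2, 34 of them at an adjusted p below 0.1 in edgeR. With the length trend removed from all 6 libraries, no ribosomal protein gene and 1 oxidative phosphorylation gene had an unadjusted p below 0.05 in edgeR. None of either list did in the reported fit, so this count cannot show what the trend contributed. With the trend removed, the ribosomal median was -0.06 without replicate 1 and 0.10 without replicate 2. The synapse median was then 0.09 and -0.06, against 0.21 and -0.22 with the trend in place. The part of the length trend in these shifts was not tested.

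Markers of other tissues that a dissected brain could carry were read in the same way. Of 29 retina markers *ninaB* and *ninaG* were higher at an unadjusted p below 0.05 and none lower. Fitted values were above 0 in 15 of the 29 and below 0 in 14. The visual pigment gene *ninaE* overlapped, at 1179 and 1625 normalised counts against 1406 and 1852, and *Rh4* had 68.1 and 82.1 against 98.7 and 128. The list median was 0.001. It was 0.12 and -0.12 without feminized replicates 1 and 2 and -0.16 and 0.06 without driver-only replicates 1 and 2. Of 18 muscle markers *Act79B* (2645 and 2909 normalised counts against 2065 and 2181) and *fln* were higher and *TpnC73F* lower. Of 14 fat body markers *Yp2* was lower, of 7 trachea markers *trh* was lower, and none of 8 hemocyte markers reached that level. The median of the muscle markers was -0.10, and it was -0.36 and 0.07 without feminized replicates 1 and 2 and 0.13 and -0.24 without driver-only replicates 1 and 2. The median of the hemocyte markers was -0.05, and it was -0.37 without driver-only replicate 1 and 0.46 without replicate 2, where 3 were higher. The part of such tissue in the results was not tested.

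**Figure D5:**
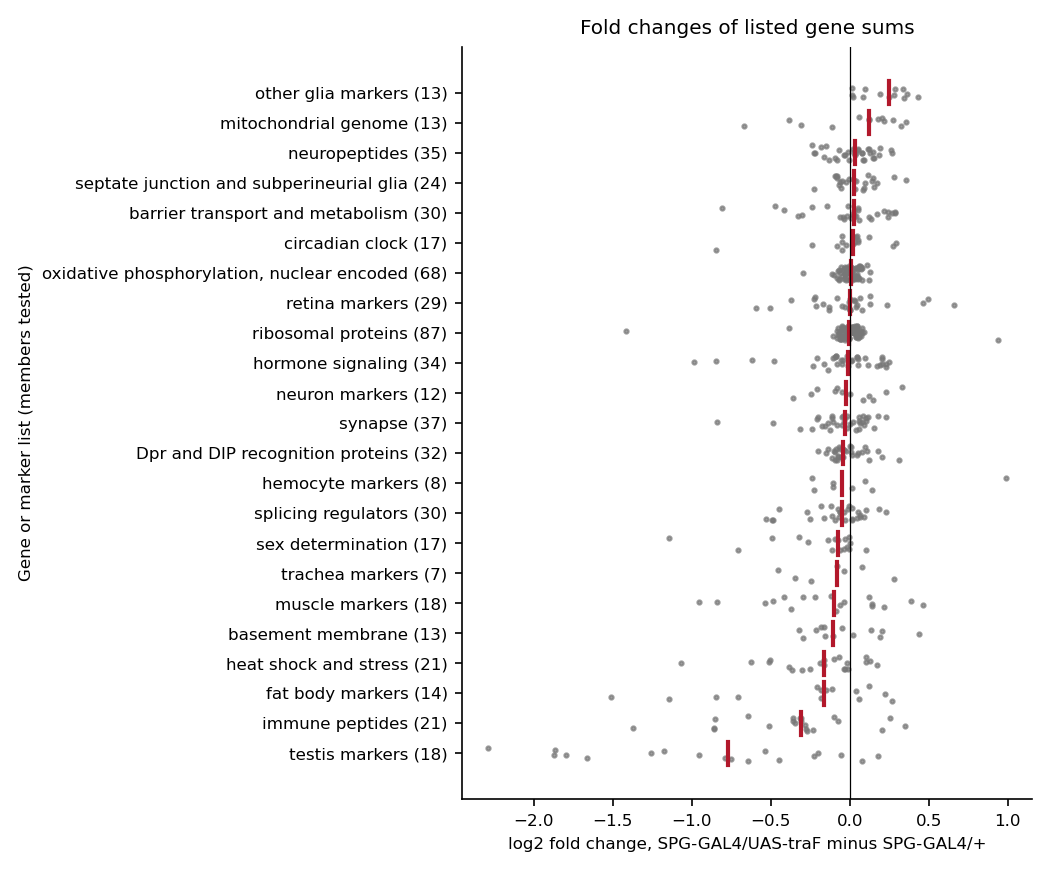
Log2 fold changes of gene sums, *SPG-GAL4/UAS-traF* minus *SPG-GAL4/+* (x axis), for the members of each gene or marker list (y axis, number tested in parentheses), with 1 point per gene and the list median as a red bar. Glial markers have the highest median at 0.25 and testis markers the lowest at -0.77, and the medians of ribosomal protein and oxidative phosphorylation genes are -0.002 and 0.01.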

How the data were processed

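Reads of poly-A selected RNA (paired ends, 75 cycles, a kit that does not mark strand) were quantified per transcript by the authors with Kallisto, and the authors deposited the estimated counts as whole numbers without normalization. The Kallisto version and the release of the reference transcriptome are not given in the sources used here. The table holds 28071 transcripts, of which 28061 matched Ensembl release 115 of BDGP6.54, the source of names, coordinates and the 13453 genes over which counts were summed.

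Tests of counts used quasi-likelihood fits of edgeR 4.0.16 under R 4.3.3 (TMM scaling, default filter on low counts, prior count 0.125, Benjamini-Hochberg adjustment over all features, threshold 0.1 as in the study), in 1 fit of all 6 libraries with 3 genotypes. Groups came from the genotype labels. Transcript usage was tested with diffSpliceDGE. A permutation of 2 against 2 libraries cannot go below p = 0.333 (two-sided), so none was run. Where a group had at most 3 counts, folds are lower bounds against 3 counts per library. Lengths of gene sums are means weighted by counts.

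Alternatives were DESeq2 1.42.0, limma-voom of limma 3.58.1, median-of-ratios size factors, omission of the filter, a minimum of 10 counts per library, the 4 libraries alone, the replicate number as a block, removal of the trend with transcript length, an adjusted p of 0.05 and omission of single libraries. Chosen after seeing the data, identical transcripts were merged (380 had the counts of another transcript of their gene), and length removal was combined with leaving out each driver-only library.

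The text names the 10 higher and 10 lower transcripts and gene sums with the smallest p, a mean of at least 50 normalised counts and no overlap, the 10 usage genes with the smallest p, the largest transcripts at 3 counts or fewer in 1 genotype, genes of sex determination and the transgenes, and up to 4 members per list by the smallest p. Further list members and genes were picked after their values were seen. The comparison, lists and rules were chosen with earlier results of these data known. The labels also name DESeq2, which the study used for its own test. Some members of the sex determination and splicing lists are counted but not reported by name here.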

Additional observations from a re-analysis of the deposited data

How the results depend on the processing

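The number of transcripts past an adjusted p of 0.1 (0 as reported) was 1 with median-of-ratios size factors, 1 with no filter, 3 with at least 10 counts in every library, 2 with the length trend removed, 1 with identical transcripts merged and 289 with DESeq2, and it was 0 whichever library was left out. The number of gene sums (1 as reported) was 5 with no filter, 2 with at least 10 counts in every library, 4 in the 4 libraries alone, 17 with the length trend removed, 40 with DESeq2 and 2 with limma-voom, and it ran from 0 to 2010 as single libraries were left out. With the length trend removed it was 204 without driver-only replicate 1 and 733 without replicate 2. The number of genes with changed transcript usage (76 as reported) was 45 with no filter, 13 with at least 10 counts in every library, 121 with the length trend removed and 18 with limma-voom, and it ran from 18 to 395 as single libraries were left out. With the length trend removed it was 426 without driver-only replicate 1 and 1200 without replicate 2. Where 1 library of a genotype was left, it was assumed to vary like the other genotypes. The causes of these differences were not tested.

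The paper states that every dissection sitting took flies of all genotypes in equal number, but not which sittings made up which replicate. Replicate numbers were therefore not taken as pairs. The difference of replicate 1 and 2 correlated between genotypes with r = -0.03, -0.19 and 0.24 over 9777 gene sums. These values cannot decide whether replicates share a block, because the driver-only difference also holds the length trend. With the replicate number as a block 0 transcripts, 28 gene sums and 23 genes with changed usage were called, of which 19 were among the 76.

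Of the 76 genes with changed usage, 9 and 19 were still called without feminized replicates 1 and 2, 60 and 66 without driver-only replicates 1 and 2, 43 with no filter and 11 with at least 10 counts in every library. For 161 single transcripts and gene sums, 2603 pairs of a value and a setting were compared. In 2266 the direction and the side of the threshold were kept, in 296 the threshold was passed only in the alternative, and in 2 it was lost, both for *CG6928* without a feminized library (log2 fold changes of 1.19 and 1.34).

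In 39 pairs, from 12 values close to 0, the log2 fold change had the opposite sign. *tra-RB* was -0.12 as reported and 0.0801 with no length trend and without driver-only replicate 1. *Liprin-gamma-RE* was 0.0836 as reported and -0.0461 to 0.24 with single libraries left out. *MCU-RA* was 0.0451 as reported and -0.0601 to 0.17 with single libraries left out. The sum of *tra* was -0.14 as reported and 0.0766 with no length trend and without driver-only replicate 1. The sum of *fru* was -0.0173 as reported, -0.21 to 0.21 with single libraries left out, 0.00652 with no filter, 0.0375 with no length trend and 0.0866 with no length trend and without driver-only replicate 1. The sum of *repo* was 0.0167 as reported, -0.0442 to 0.0871 with single libraries left out and -0.0959 with no length trend and without driver-only replicate 1. The sum of *CG5989* was 0.0473 as reported, -0.0460 to 0.16 with single libraries left out and -0.00684 with no length trend and without driver-only replicate 1. The sum of *wde* was -0.0225 as reported, -0.13 to 0.10 with single libraries left out, 0.000970 with no filter, 0.0162 with no length trend and 0.0450 with no length trend and without driver-only replicate 2. The sum of *Liprin-gamma* was -0.0319 as reported, -0.22 to 0.19 with single libraries left out, 0.0133 with no length trend and 0.0823 with no length trend and without driver-only replicate 1. The sum of *dpr15* was -0.0996 as reported and -0.24 to 0.0668 with single libraries left out. The sum of *MCU* was 0.00156 as reported, -0.12 to 0.14 with single libraries left out, -0.00156 with median-of-ratios size factors, -0.00195 with at least 10 counts in every library, -0.000131 with 4 libraries, -0.0531 with no length trend and without driver-only replicate 2 and -0.00114 with limma-voom. The sum of *Sxl* was -0.00613 as reported, -0.28 to 0.34 with single libraries left out, 0.0182 with no filter, 0.0205 with the replicate block, 0.0462 with no length trend, 0.24 with no length trend and without driver-only replicate 1 and 0.0164 with limma-voom.

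With 2 libraries a genotype, and the driver-only libraries apart from each other in length trend and testis RNA, differences may have been missed. No smallest detectable difference is given. Large differences could also miss the threshold, as for *trol-RAL* with a log2 fold change of 10.1 (edgeR adjusted p = 0.279).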
